A study of Mus musculus with 4 samples.

Results

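The cells described here are mesodermal cells of the mouse embryo at E9.5 and E10.5 that carried the transcription factors Osr1 and Foxf1 together. These cells also met limits on genes of their nearest neighbours, some of which left room for Wnt2 or Isl1. They were chosen by their measured UMI counts, a UMI being a unique molecular identifier that stands for 1 captured transcript. A cell had at least 1 UMI of Osr1 and at least 1 of Foxf1, fewer than 2 of Wnt2, none of Upk3b, Cdh5 or Lhx2, and not both 2 or more of Isl1 and 1 or more of Nkx2-5. The rule was applied to cells in which 1000 or more genes were detected and mitochondrial UMIs made up no more than 10%. It held for 1360 of the 12094 retained cells of both late libraries, of 22625 retained in all 4 libraries of the series. The working label for these cells is posterior second heart field, and they are called Osr1+ Foxf1+ cells below.

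Both late libraries came from embryos of the genotype Mesp1Cre;Rosa26-GFPflox/+ on the Swiss Webster strain, with no treatment, from tissue labelled Pharyngeal apparatus and heart. Embryos of both sexes were pooled, and GFP-positive, DAPI-negative cells were sorted before droplet capture with 3' chemistry. Cre was expressed from the Mesp1 locus, so the sort selected for cells of the Mesp1 lineage of early mesoderm. Cells of other origin were not its target, and the purity of the sort was not tested. The companion libraries at E8.0 and E8.25 had the same genotype and enter only as a count below.

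The second heart field is a pool of progenitors in splanchnic mesoderm behind and below the early heart tube, which adds cells to the growing heart. Its anterior portion feeds the outflow tract and right ventricle, while its posterior portion feeds the atria, the atrial septum and the venous inflow, and lies beside foregut mesoderm that gives rise to lung mesenchyme. Retinoic acid made by Aldh1a2 marks the posterior portion and promotes expression of Hox genes such as Hoxb1, and Hedgehog ligand from the foregut endoderm is received there through Ptch1 and Gli factors, with Foxf genes and Tbx5 acting in the same mesoderm.

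There was 1 library per stage, so a difference between stages cannot be told apart from a difference between libraries, and no test of stage or p-value is given. Levels are the summed UMIs of a gene in the Osr1+ Foxf1+ cells of a library per 1000000 UMIs of those cells (CPM). Brackets give exact 95% intervals, which cover counting error only. A gene was called higher or lower between stages when the levels differed at least 2-fold, the interval of the log2 ratio lay on 1 side of no difference, and at least 20 UMIs were counted. Since the cells were selected on the counts of these same libraries, comparisons with other cells of a library are descriptions as well.

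At E9.5, 391 of 4052 retained cells met the rule, or 9.65% [8.76 to 10.6]. At E10.5 it held for 969 of 8042 cells, or 12.05% [11.3 to 12.8]. The Osr1+ Foxf1+ cells were thus a minority of each library. The order of the shares turned when cells were thinned to 5000 UMIs before the rule, to 8.61% (347 cells) at the earlier stage and 8.07% (649 cells) at the later one, so no difference in share is read from them. The same rule met 702 of 7577 cells at E8.0 and 121 of 2954 at E8.25. The members had 6893118 UMIs at E9.5 against 14988942 at E10.5, with medians of 16940 and 14508 per cell, against 17408 and 15611 over all retained cells. The libraries at E9.5 and E10.5 shared 41 cell barcodes. No cell was removed as a doublet. The cells with the highest doublet scores held 7 of the members at E9.5 against 51 at E10.5.

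The genes that made the choice are given as a description. Osr1, a zinc finger factor of intermediate and splanchnic mesoderm, was at 247 CPM at E9.5 against 275 CPM at E10.5. Foxf1, a forkhead factor of splanchnic mesoderm, was at 417 and 245 CPM. Among the other gate genes, Wnt2 was at 17.4 and 9.87 CPM, Isl1 at 69.9 and 60.2 CPM and Nkx2-5 at 6.09 and 2.47 CPM. Members with 1 Wnt2 UMI numbered 120 and 148. Members with 2 or more Isl1 UMIs numbered 97 and 197, or 24.8% and 20.3%. The requirement for Foxf1 took the Osr1-positive cells from 1106 to 827 in the E9.5 library and from 2498 to 1522 in the E10.5 library, and the upper limit on Wnt2 took these to 487 and 1165. Members with a single Osr1 UMI numbered 93 and 223, and their Aldh1a2 level was 99.2 and 50.3 CPM. Cells that failed by Osr1 alone numbered 123 and 435, with Aldh1a2 at 59.3 and 21.9 CPM. Cells that failed by exactly 2 Wnt2 UMIs numbered 65 and 75, and their Aldh1a2 stood at 209 and 86.8 CPM. The Wnt2 edge of the gate therefore ran through cells with at least as much Aldh1a2 as the members, while the Osr1 edge bordered on cells with less.

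Aldh1a2 and Hoxb1 were the defining markers that the rule did not use. Aldh1a2, the enzyme that makes retinoic acid from retinaldehyde, was at 143 CPM [134 to 152] at E9.5 against 78.3 CPM [73.9 to 82.9] at E10.5. The other late cells had 31.1 and 21.5 CPM. Hoxb1, a homeobox gene induced by retinoic acid, was at 88.1 CPM [81.2 to 95.4] and 16.3 CPM [14.4 to 18.5], against 27.9 and 5.65 CPM in the other late cells. Both markers were more than 2-fold higher in the Osr1+ Foxf1+ cells than in the other late cells as a whole. In that comparison they did not go against the label. The label may not hold for every member. At E9.5, 38.9% of members fell in a cluster led by Tbx1 and 18.9% in one led by Barx1, described below. In the cells with 2 or more Wnt2 UMIs, described below, Aldh1a2 was at 67.5 and 49.8 CPM and Hoxb1 at 47.1 and 12.8 CPM. Neither marker was 2-fold higher than in those cells at E10.5, so the markers were not particular to the Osr1+ Foxf1+ cells. Both were also lower at E10.5 than at E9.5.

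Detection per cell was compared after thinning each cell to 5000 UMIs, which left out 2 shallower members, both at E9.5. Aldh1a2 was then seen in 45.5% [40.5 to 50.6] of the members at E9.5 against 31.8% [28.9 to 34.8] at E10.5, and unthinned in 76.5% and 53.7%. For Hoxb1 the thinned shares were 31.4% and 6.91%, and the unthinned ones 61.9% and 15.5%. Free RNA can place UMIs in cells that do not express a gene, so endothelial cells with 2 or more Cdh5 UMIs served as background, with median depths of 17544 and 18799 UMIs. In these the thinned share for Aldh1a2 was 1.78% and 0.597%. Hoxb1 was seen in 0.592% of them in the E9.5 library and in 0 of 335 in the E10.5 library, an upper bound of 1.1%. Marker detection in the Osr1+ Foxf1+ cells was above that background in both libraries, although most members showed no Hoxb1 UMI at E10.5.

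The stretches before the start sites of Aldh1a2 and Hoxb1 are shown because these markers define the posterior identity and both were lower at E10.5. They are from RefSeq, GRCm38.p6, plus strand, 250 bases each, at chr9:71215539-71215788 and chr11:96365508-96365757. Aldh1a2 is annotated on chromosome 9 at 71215789 to 71296243 and Hoxb1 on chromosome 11 at 96365746 to 96368254, so the Hoxb1 stretch runs a few bases into its annotated span. Capitals mark a match to TGATNNAT, a HOX-PBX motif.
Aldh1a2: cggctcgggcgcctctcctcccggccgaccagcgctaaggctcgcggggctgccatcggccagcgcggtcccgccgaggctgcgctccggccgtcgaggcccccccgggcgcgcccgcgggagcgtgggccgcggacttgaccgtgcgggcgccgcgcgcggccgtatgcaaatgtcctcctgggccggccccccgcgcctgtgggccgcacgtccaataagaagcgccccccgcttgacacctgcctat
Hoxb1: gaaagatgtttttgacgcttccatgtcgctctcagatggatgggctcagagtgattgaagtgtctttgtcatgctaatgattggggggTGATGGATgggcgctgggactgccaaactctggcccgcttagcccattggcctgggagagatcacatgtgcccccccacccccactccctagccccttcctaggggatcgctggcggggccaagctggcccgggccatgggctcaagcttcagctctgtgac
The Aldh1a2 stretch is 77.6% G or C and the Hoxb1 stretch 59.2%. Both strands were searched for TGATNNAT, GACCACCCA (GLI), AGGTGTGA (T-box) and the DR5 retinoic acid element, a direct repeat with a spacer. The Hoxb1 stretch held 1 match to TGATNNAT on the plus strand, starting 162 bases before the start site, and none of the other motifs, and the Aldh1a2 stretch held none of the 4. Of 32851 promoters in the table, 7.68% held TGATNNAT, 1.12% the T-box letters, 0.225% the GLI letters and 0.00913% the retinoic acid element. A match is a description of letters, not a binding site.

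**Figure D1:**
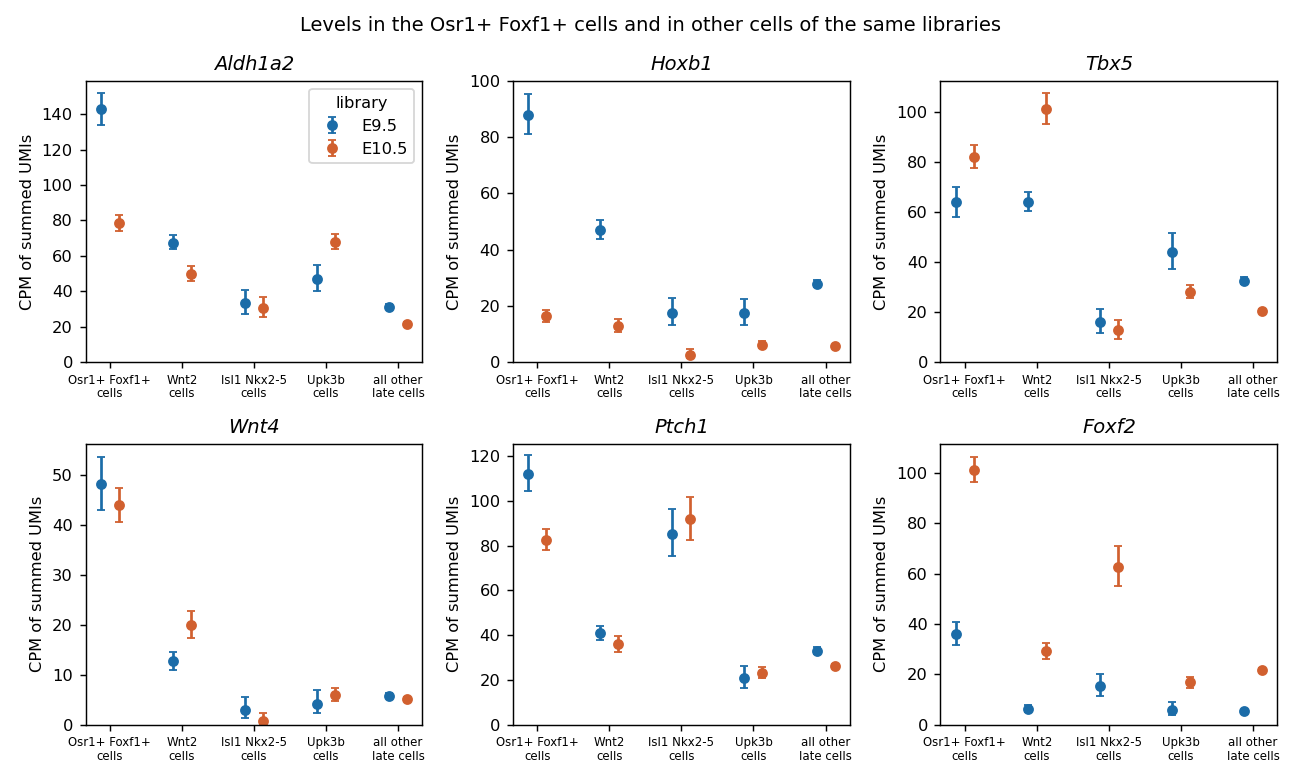
Levels of Aldh1a2, Hoxb1, Tbx5, Wnt4, Ptch1 and Foxf2 in CPM (axes from 0) in the Osr1+ Foxf1+ cells, Wnt2 cells, Isl1 Nkx2-5 cells, Upk3b cells and all other late cells, by library, with bars for the exact 95% Poisson interval of the count. Aldh1a2 in the Osr1+ Foxf1+ cells stands at 143 CPM at E9.5 against 78.3 CPM at E10.5, above the other cells of each library, and Foxf2 stands at 36.1 and 101 CPM.

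Across 12097 genes compared between stages in the Osr1+ Foxf1+ cells, 1022 were called higher at E10.5, which is 8.45%, and 285 were called lower, which is 2.36%. The median log2 ratio over all these genes was 0.05. Of 13 other genes of the posterior second heart field list, which leaves out Osr1 and Foxf1, 1 was called higher and 2 lower, with a median of -0.07. Hoxb1 was among the called genes on the lower side, and Foxf2 was the gene on the higher side. Hoxb1 differed by -2.43 [-2.65 to -2.21] on the log2 scale. Foxf2, a forkhead factor that responds to Hedgehog, was at 36.1 CPM and then 101 CPM, a log2 ratio of 1.49 [1.29 to 1.69]. The posterior list was thus split, with Hoxb1 lower and Foxf2 higher at E10.5. Neither direction was particular to these cells. In the other late cells Hoxb1 was at 27.9 and 5.65 CPM and Foxf2 at 5.37 and 21.5 CPM.

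The rest of the posterior list differed by less than 2-fold. Aldh1a2 had a log2 ratio of -0.87 [-0.99 to -0.75] and Gata6, a zinc finger factor of mesoderm and endoderm, went from 48.0 to 26.0 CPM, a log2 ratio of -0.89 [-1.10 to -0.67]. Tbx5, the T-box factor of the atria, the septum and the forelimb, was at 64.0 CPM [58.1 to 70.2] and then 82.1 CPM [77.6 to 86.9]. Tcf21, a basic helix-loop-helix factor of mesenchyme, was at 51.1 and 87.5 CPM. Nr2f2, the orphan nuclear receptor of atrial and venous tissue, was level at 198 and 190 CPM. The intervals of Aldh1a2, Gata6, Tbx5 and Tcf21 did not span 0, yet none reached the fold that a call required. Gata6 was called lower when at least 2 UMIs of Osr1 and of Foxf1 were required.

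**Figure D2:**
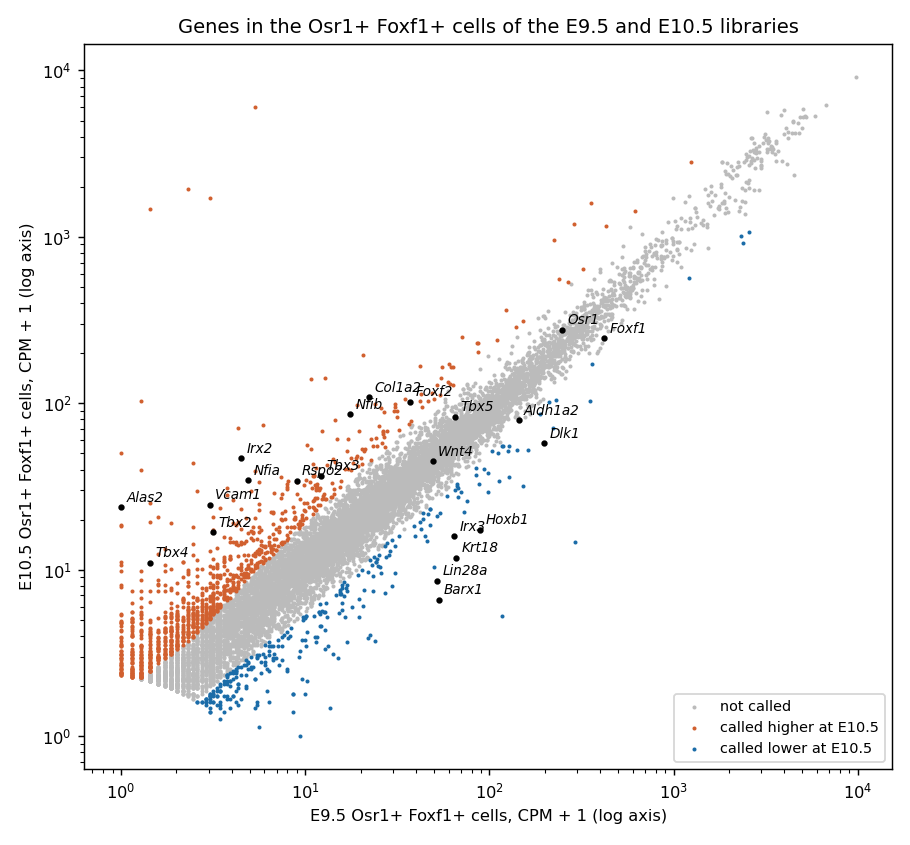
Level of each gene in the Osr1+ Foxf1+ cells at E9.5 (x axis) and E10.5 (y axis), as CPM + 1 on log axes, with 1 point per gene and named genes marked. Hoxb1, Barx1 and Lin28a lie among the genes called lower at E10.5 and Foxf2, Irx2 and Vcam1 among those called higher, and grey points were not called.

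Genes of retinoic acid handling did not follow Aldh1a2. Of 16 tested, 5 were called higher at E10.5, none lower, and their median log2 ratio was 0.24. Rdh10, which makes the retinaldehyde that Aldh1a2 uses, was at 47.4 and 39.8 CPM, and Stra6, the receptor for retinol uptake, at 35.4 and 38.4 CPM. Both were close to level between the libraries. The retinoic acid binding protein Crabp1 went from 29.3 to 89.3 CPM, a log2 ratio of 1.61 [1.39 to 1.83]. Rarg, a nuclear receptor for retinoic acid, went from 4.93 to 12.9 CPM. Rbp4 and the degrading enzyme Cyp26a1 were also called higher, from 2.03 to 4.14 CPM and from 1.02 to 4.34 CPM. The calls named here therefore fell on binding proteins, a receptor and a degrading enzyme. Crabp1 lost its call when cells were thinned, at a log2 ratio of 0.93.

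Among Hox genes and their cofactors, 24 were tested, of which 1 was called higher and 2 lower, with a median of 0.08. Hoxb1 was again among the lower genes. Hoxa4 was called higher, from 8.56 to 19.4 CPM, a log2 ratio of 1.18 [0.77 to 1.61]. Hoxb4 was at 153 and 160 CPM and Hoxa5 at 66.9 and 56.0 CPM. The Hox genes named here thus differed in direction, and Hoxb4 and Hoxa5 were not called.

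The Hedgehog ligands were not seen in these cells, with 0 UMIs of Shh and of Ihh in either library. A count of 0 allows up to 3 UMIs. The receptor and target genes were present. Ptch1, the Hedgehog receptor and a target of the pathway, was at 112 CPM [104 to 120] and 82.5 CPM [78.0 to 87.3]. Gli1, the transcription factor most used as a readout of the pathway, was level at 19.4 and 21.3 CPM, and Hhip, a secreted Hedgehog inhibitor and target, was at 18.9 and 29.0 CPM. Smo, the signal transducer, was at 75.6 and 51.0 CPM. Of 14 Hedgehog genes tested, 2 were called higher and none lower, with a median of 0.23. The called genes were Foxf2 and the co-receptor Boc, at 1.16 and 8.07 CPM, a log2 ratio of 2.80 [1.77 to 4.04].

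Of 22 Wnt genes tested, 5 were called higher at E10.5 and 1 lower, with a median of 0.55. Wnt4, a secreted ligand, was at 48.2 and 44.0 CPM, and Rspo1, which boosts Wnt signals at the receptor, was at 75.2 and 60.3 CPM. Neither was called. Rspo2, of the same secreted family, went from 7.98 to 33.3 CPM, a log2 ratio of 2.06 [1.66 to 2.49], and Sfrp2, a secreted Wnt modulator, from 51.1 to 128 CPM, a log2 ratio of 1.33. Wnt5a, a ligand of tissue outgrowth, was at 49.6 and 85.8 CPM, short of a call. Within the R-spondins the stage difference was thus carried by Rspo2, since Rspo3 stood at 24.4 and 21.6 CPM.

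Of 22 BMP genes tested, 5 were called higher and 1 lower, with a median of 0.43. Bmp4, the ligand most abundant of those named here, was at 50.5 and 43.1 CPM. Bmp5 went from 4.79 to 13.1 CPM, a log2 ratio of 1.46 [0.92 to 2.04], and Bmp7 from 21.5 to 10.47 CPM, a log2 ratio of -1.04 [-1.37 to -0.70]. Genes known to respond to BMP were called as well. Msx2, a homeobox gene that responds to BMP, was at 1.31 and 8.94 CPM, a log2 ratio of 2.78 [1.81 to 3.94]. The T-box repressors Tbx2 and Tbx3 were at 2.18 and 15.7 CPM and at 11.2 and 35.8 CPM, log2 ratios of 2.86 [2.10 to 3.72] and 1.68 [1.33 to 2.04]. The calls of Bmp5 and Msx2 were lost when cells were thinned, at log2 ratios of 0.86 and 0.71, and the call of Bmp7 was lost under 4 alternatives.

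Of 7 T-box genes tested, 4 were called higher and none lower, with a median of 1.55. Beside Tbx2 and Tbx3 these were Tbx20, a cardiac factor, at 2.03 and 5.94 CPM, and Tbx4, a factor of lung and limb mesenchyme. Tbx4 had 3 UMIs at E9.5 against 150 at E10.5, or 0.435 and 10.0 CPM, a log2 ratio of 4.52 [2.95 to 6.82]. The list of lung and foregut mesenchyme, which shares some of these genes, had 5 of 15 called higher and 1 lower, with a median of 0.20. The lower gene was Barx1, a homeobox factor of stomach mesenchyme, at 52.1 and 5.60 CPM, a log2 ratio of -3.22 [-3.58 to -2.87].

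Genes of the anterior second heart field were called in both directions. Of 16 tested, 2 were called higher and 4 lower, with a median of -0.14. Fgf8, a secreted growth factor of the pharynx and outflow tract, had 52 UMIs at E9.5 against 6 at E10.5, or 7.54 and 0.400 CPM, a log2 ratio of -4.24 [-5.75 to -3.02]. Tbx1, the T-box factor of the pharynx, was level at 42.6 and 41.0 CPM. Irx3, a homeobox factor, went from 63.1 to 14.9 CPM, a log2 ratio of -2.08 [-2.32 to -1.84]. Its relative Irx2, on no list and chosen after its values were seen, moved the other way, from 3.48 to 45.7 CPM, a log2 ratio of 3.71 [3.13 to 4.37]. Of 12 FGF genes, none was called higher and 1, Fgf8, was called lower, with a median of -0.24.

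Genes of the extracellular matrix were mostly on the higher side at E10.5. Of 28 tested, 13 were called higher and 1 lower, with a median log2 ratio of 0.97. The fibrillar collagen chains Col1a1 and Col1a2 went from 18.7 to 67.3 CPM and from 21.2 to 108 CPM, log2 ratios of 1.85 [1.58 to 2.12] and 2.35 [2.11 to 2.61]. Eln, which encodes elastin, had 3 UMIs at E9.5 against 81 at E10.5. The exception was Hapln1, which links hyaluronan to proteoglycans in cardiac jelly, at 26.6 and 10.9 CPM. In the other late cells Col1a1 and Col1a2 had log2 ratios of 0.59 and 1.47.

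Of 23 genes of guidance, adhesion and chemokine signalling, 7 were called higher and none lower, with a median of 0.53. Nrp2, a receptor for semaphorins and VEGF, went from 9.72 to 52.4 CPM, a log2 ratio of 2.43 [2.07 to 2.81]. Vcam1, an adhesion molecule for integrins, went from 2.03 to 23.6 CPM, a log2 ratio of 3.54 [2.77 to 4.43]. In the other late cells these 2 genes had log2 ratios of 0.50 and 0.40. The chemokine Cxcl13 was high and level at 173 and 167 CPM. Outside the list, Epha3, an ephrin receptor, had 3 UMIs at E9.5 against 363 at E10.5, giving a log2 ratio of 5.80 [4.24 to 8.08].

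Genes of developmental timing were called in both directions, 3 higher and 3 lower of 10. Lin28a, an RNA-binding protein of early embryonic cells that blocks let-7 maturation, was at 50.8 and 7.61 CPM, a log2 ratio of -2.74 [-3.06 to -2.43], and its relative Lin28b at 24.2 and 11.3 CPM. The imprinted gene Dlk1 was at 198 and 56.6 CPM. Nfia and Nfib, nuclear factor I genes that accompany maturation in many tissues, were at 3.92 and 33.4 CPM and at 16.5 and 84.7 CPM, log2 ratios of 3.09 [2.53 to 3.71] and 2.36 [2.08 to 2.65]. Lin28a was lower by about as much in the other late cells, with a log2 ratio of -2.58, while Nfia and Nfib had 0.90 and 0.92 there. Krt18, an intermediate filament of simple epithelia, was at 64.7 and 10.8 CPM, a log2 ratio of -2.58 [-2.85 to -2.32].

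**Figure D3:**
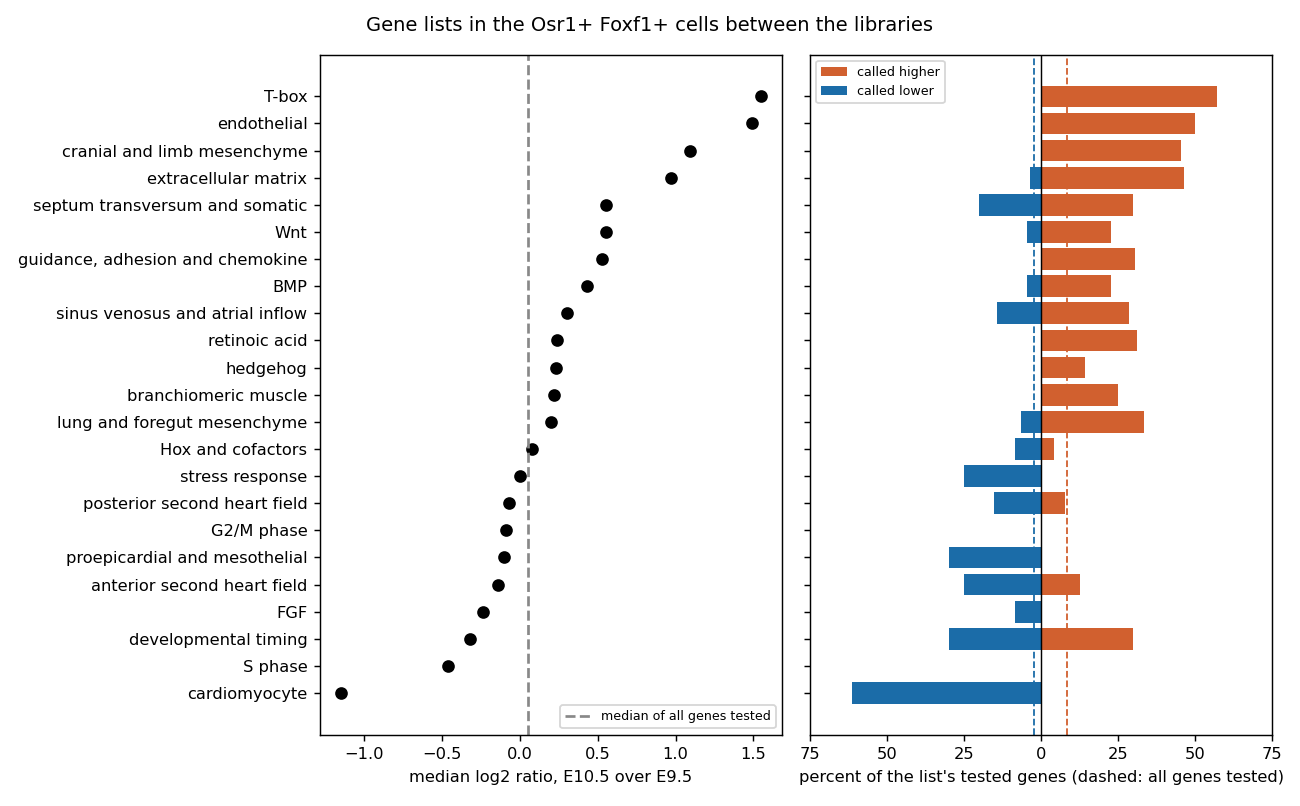
Median log2 ratio of E10.5 over E9.5 (left) and percent of tested genes called higher or lower (right) for each gene list with at least 7 tested genes, blood left out, in the Osr1+ Foxf1+ cells; dashed lines mark all 12097 genes. The T-box list, at a median of 1.55, and the extracellular matrix list, at 0.97, lie to the right, and the cardiomyocyte list, at -1.15, to the left.

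Genes of cranial and limb mesenchyme were called higher in 5 of 11 tested and lower in none, with a median of 1.09. Prrx1, a homeobox factor of mesenchyme, was at 49.0 and 104 CPM, a log2 ratio of 1.09 [0.92 to 1.27], and Twist1, a helix-loop-helix factor of mesenchyme, at 6.96 and 30.2 CPM, a log2 ratio of 2.12 [1.69 to 2.58]. Septum transversum and somatic genes had 3 higher and 2 lower of 10, branchiomeric muscle genes 2 higher and none lower of 8, and sinus venosus and atrial inflow genes 2 higher and 1 lower of 7. Proepicardial and mesothelial genes had none higher and 3 lower of 10, and stress response genes none higher and 2 lower of 8. Mesenchyme genes thus gave more calls on the higher side than these other lists. Outside the lists, the genes ranked by ratio included Prtg, a cell surface protein of early mesoderm and neural tissue, at 150 and 30.8 CPM, and Nr6a1, an orphan nuclear receptor of early embryos, at 15.8 and 2.67 CPM. Prtg had a log2 ratio of -2.29 here and -2.21 in the other late cells.

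Markers of other cell types are given with the stage comparison because they moved with it. The 16 cardiomyocyte genes summed to 353 and 129 CPM in the members at the earlier and later stage, against 5380 and 1569 CPM in the other late cells. Of 13 tested, 8 were called lower and none higher, with a median of -1.15, which stood at -0.45 with thinned cells and -0.47 with the highest doublet scores removed. Myl7, an atrial myosin light chain, was at 127 and 35.2 CPM. The 12 endothelial genes summed to 50.2 and 82.9 CPM, with 1 and 0 of them at 0, and 4 of 8 tested were called higher. Tek, Emcn, Etv2 and Cldn5 made these calls, and none was above 5.27 CPM. Endoderm markers summed to 8.56 and 7.41 CPM and neural crest and neural markers to 27.4 and 18.2 CPM. The part of these cell types in the stage differences was not tested.

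Haemoglobin RNA stood apart between the libraries. It took 0.000841% of the members' UMIs at E9.5 against 1.13% at E10.5, and all 13 blood genes tested were called higher. At E10.5, 13 members had over 1% haemoglobin UMIs, and without them the share was 0.492%, next to 0.5004% to 0.511% in the neighbouring classes. Without such cells 979 of the genes called higher and 277 of those called lower were still called. Alas2, the first enzyme of erythroid haem synthesis, was at 0 UMIs at E9.5 against 22.8 CPM at E10.5. When the profile of 1108 haemoglobin-rich cells was scaled to the members' haemoglobin, it came to 10% or less of the member level for 955 of the 1022 genes called higher and to 50% or more for 45.

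Some of the largest ratios were shared with the other late cells as a whole. Tpm3-rs7 was at 117 and 4.27 CPM, a log2 ratio of -4.77, and at -4.89 in the other late cells. Gm5611 had -4.40 and -4.70, and Nme2 3.30 and 3.07. These genes share sequence with close copies, so their counts are uncertain. Xist, the RNA of the inactive X chromosome, was at 139 and 284 CPM in pooled embryos of both sexes, a log2 ratio of 1.03 against -0.07 in the other late cells.

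In each library the Osr1+ Foxf1+ cells were set beside the other 3661 and 7073 retained cells. A gene was called here only when it met the fold and the interval in both libraries with at least 20 UMIs in each. Of 13976 genes, 154 were called higher in the members, which is 1.1%, and 728 lower, which is 5.21%. The median log2 ratio over all genes was -0.03 in the E9.5 library and 0.20 in the E10.5 library. Haemoglobin took 11.3% of the other cells' UMIs at E10.5, and leaving out cells over 1% haemoglobin took the higher count to 100.

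Secreted and junction genes had some of the highest ratios against other late cells. Cldn11, a tight junction claudin, was at 76.6 and 95.8 CPM in the members and at 6.56 and 11.3 CPM in the others, log2 ratios of 3.55 [3.36 to 3.73] and 3.09 [2.98 to 3.19]. Wnt4 had 3.05 [2.84 to 3.27] and 3.12 [2.96 to 3.28], and Cxcl13 2.74 and 2.43. Rspo1 had 2.20 and 2.18 and Aldh1a2 2.20 and 1.87. Msc, a basic helix-loop-helix repressor known from branchiomeric muscle, had 1.66 and 2.19. Wnt4, Rspo1 and Cxcl13, none of which entered the gate, were thus higher than in the other late cells as a whole at both stages.

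Hedgehog genes were higher in the members than in other late cells in 6 of 15 tested and lower in 1, with medians of 0.38 and 0.51. Foxf2 had log2 ratios of 2.75 and 2.24, Foxl1, a further forkhead target, 2.56 and 2.24, Gli1 1.89 and 1.68, Ptch1 1.76 and 1.65, and Hhip 1.73 and 2.32. These are receptor, inhibitor and transcription factor genes that respond to the pathway. Of 24 Hox genes and cofactors 6 were higher and 1 lower, with medians of 0.72 and 0.77, and of 13 posterior genes 3 were higher and none lower, with medians of 0.82 and 0.75. Retinoic acid genes went both ways, 4 higher and 3 lower of 19, and in this list Rdh10 and Stra6 were higher, at 1.26 and 1.34 and at 1.18 and 1.27. Of 16 cardiomyocyte genes 15 were lower, and of 17 anterior genes 6 were lower and none higher. Mef2c, a factor of the anterior field and of muscle, was at -2.32 and -1.60.

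**Figure D4:**
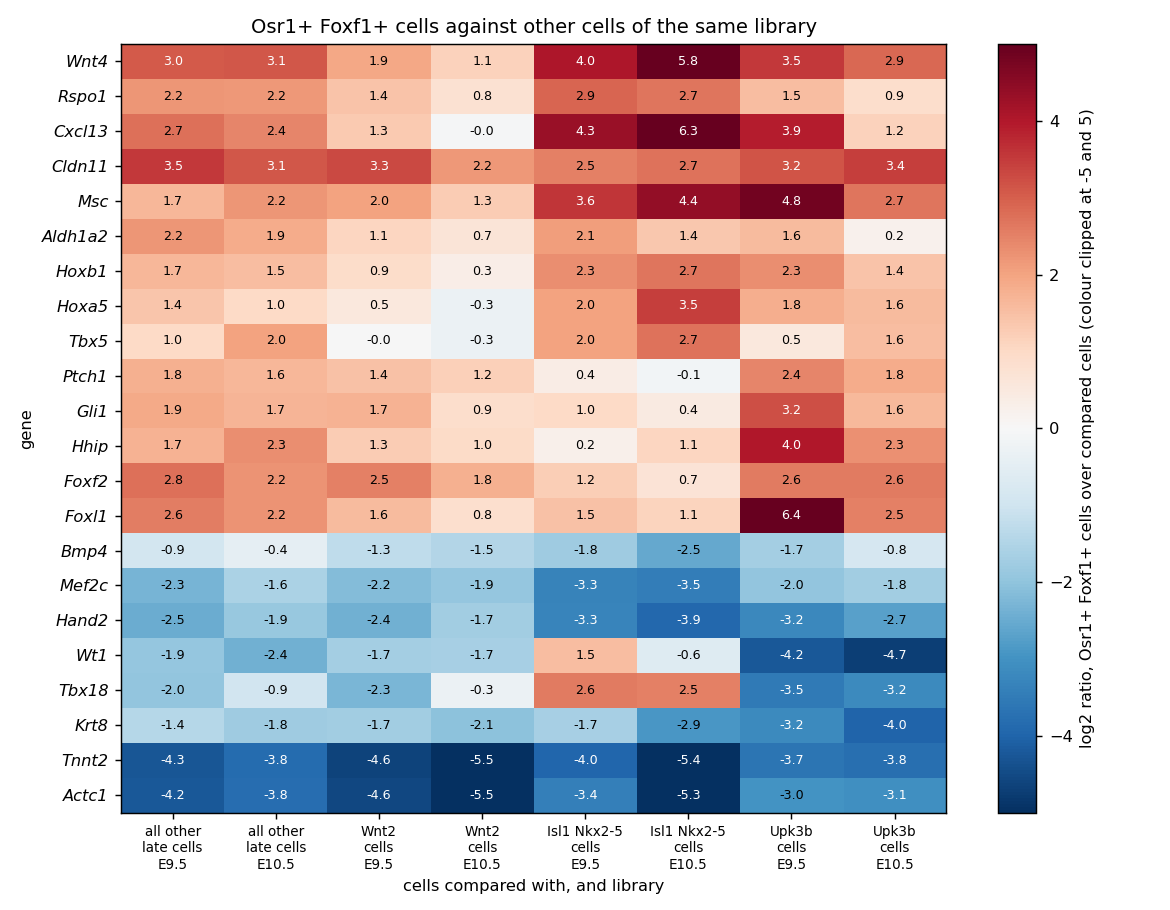
Log2 ratio of the level in the Osr1+ Foxf1+ cells over that in 4 other sets of cells (all other late cells, Wnt2 cells, Isl1 Nkx2-5 cells, Upk3b cells) for 22 genes in each library, with colours limited to 5 in either direction. Wnt4, Foxf2 and Msc are higher in the Osr1+ Foxf1+ cells in each column, while Tbx5 is near 0 against Wnt2 cells, at -0.01 and -0.30.

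A neighbouring set held the cells with 2 or more UMIs of Wnt2, a ligand of lung and atrial inflow mesoderm, of which there were 857 in the E9.5 library and 602 in the E10.5 library. Against these, 74 of 11784 genes were called higher, which is 0.628%, and 344 lower, which is 2.92%. Aldh1a2 was at 67.5 and 49.8 CPM in the Wnt2 cells, log2 ratios of 1.08 [0.96 to 1.21] and 0.65 [0.51 to 0.81]. Hoxb1 was at 47.1 and 12.8 CPM in the Wnt2 cells, against 88.1 and 16.3 CPM in the members. After thinning, Hoxb1 was seen in 6.98% of the Wnt2 cells and 6.91% of the members at E10.5. Tbx5 was at 64.2 and 101 CPM, with log2 ratios of -0.01 [-0.17 to 0.16] and -0.30 [-0.42 to -0.18], and Nr2f2 had -0.04 and -0.04. The Wnt2 cells thus had no less Tbx5 and Nr2f2 than the Osr1+ Foxf1+ cells. Cxcl13 was at 70.7 and 171 CPM in the Wnt2 cells, log2 ratios of 1.29 and -0.04, and Rspo1 had 1.42 and 0.75, so neither was called. The called genes on the higher side included Cldn11, at 3.32 and 2.17, Foxf2, at 2.52 and 1.79, Msc, at 2.03 and 1.26, Wnt4, at 1.93 and 1.14, and Ptch1, at 1.45 and 1.20. On the lower side were Gata4, with -1.31 in both libraries, Gata6, with -1.13 and -1.88, and Bmp4, with -1.27 and -1.46. All 15 cardiomyocyte genes tested were lower, among them the atrial myosin Myh6, at -5.72 and -6.61.

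A further set had 2 or more Isl1 UMIs, 1 or more of Nkx2-5, fewer than 2 of Wnt2 and none of Upk3b, Cdh5 or Lhx2. These cells, whose Osr1 and Foxf1 counts were not limited, numbered 178 and 225. Of 10678 genes, 96 were called higher in the Osr1+ Foxf1+ cells, which is 0.899%, and 362 lower, which is 3.39%. Of 13 posterior genes 5 were higher and none lower, with medians of 1.24 and 0.69. Aldh1a2 had log2 ratios of 2.10 [1.80 to 2.40] and 1.36 [1.08 to 1.64], Hoxb1 2.33 [1.93 to 2.76] and 2.67 [1.76 to 3.75], and Tbx5 2.01 [1.58 to 2.46] and 2.70 [2.29 to 3.15]. Nr2f1 and Nr2f2 completed the 5. Wnt4 had 4.04 and 5.83 and Cxcl13 4.31 and 6.34, and 7 of 22 Hox genes and cofactors were higher, Hoxa5 by 2.01 and 3.45. The reverse held for 10 of 16 anterior genes and 8 of 21 BMP genes. Mef2c was at -3.33 and -3.47, Fgf10, a growth factor of the anterior field, at -1.98 and -1.03, Hand1, a cardiac helix-loop-helix factor, at -4.07 and -5.89, and Bmp4 at -1.79 and -2.55. Ptch1 did not separate these sets, at 0.39 [0.19 to 0.60] and -0.15 [-0.32 to 0.02].

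Cells with Upk3b, a surface protein of mesothelium, and no UMI of Cdh5 or Lhx2 numbered 159 and 677. Their Osr1 and Foxf1 counts were not limited either. Of 10803 genes, 213 were called higher in the Osr1+ Foxf1+ cells, which is 1.97%, and 463 lower, which is 4.29%. Hedgehog genes were higher in 6 of 13 tested and lower in 2, with Ptch1 at 2.43 and 1.84 and Gli1 at 3.23 and 1.63. Foxl1 had 1 UMI in the Upk3b cells at E9.5, and its log2 ratios were 6.40 [3.91 to 11.7] and 2.51 [2.09 to 2.95]. Of 11 proepicardial and mesothelial genes 8 were lower. Wt1, the zinc finger factor of the epicardium, was at -4.23 and -4.71, Tbx18, a T-box factor of epicardium and sinus horns, at -3.52 and -3.17, and Krt19, an epithelial keratin, at -6.46 and -6.06. Aldh1a2 did not separate the sets at E10.5, with 68.1 CPM in the Upk3b cells and a log2 ratio of 0.20 [0.08 to 0.33], after 1.60 [1.36 to 1.85] at E9.5.

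Within the Osr1+ Foxf1+ cells the posterior genes were not spread evenly. After thinning, Tbx5 was seen in 24.9% of the members at E9.5, 29.6% at E10.5, and 2.37% and 4.78% of the endothelial cells. Aldh1a2 was seen in 58.8% of the members with Tbx5 and 41.1% of those without at E9.5, and in 27.9% and 33.4% at E10.5. The pairing of these genes thus had a different sign in the libraries. With Isl1 it had the same sign, since Aldh1a2 was seen in 27.2% of members with Isl1 and 50.3% without at E9.5 and in 23.4% and 33.6% at E10.5. With Wnt4 the shares were 56.0% and 42.6% at E9.5 and 49.1% and 28.3% at E10.5. Cells that carried Wnt4 were therefore the ones in which Aldh1a2 was seen more often, and cells that carried Isl1 those in which it was seen less often. These shares are a description, since the cells of a library are not replicates.

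The genes in this comparison were chosen after their values were seen, among those called in both libraries. Members with a Tbx5 UMI after thinning, 97 at E9.5 against 287 at E10.5, were set beside those without, 292 and 682. Cxcl13 was at 320 and 136 CPM with and without Tbx5 in the E9.5 library and at 290 and 142 CPM in the E10.5 library. Smoc2, a secreted matrix-associated protein, was at 39.2 and 8.90 CPM at E9.5 and at 204 and 50.4 CPM at E10.5. Tnnt2, the cardiac troponin T, was also higher with Tbx5, by log2 ratios of 1.97 [1.07 to 2.89] and 1.83 [0.86 to 2.84]. On the other side Irx1 was lower with Tbx5, at 2.06 against 16.4 CPM in the E9.5 library and 6.97 against 42.2 CPM in the E10.5 library, as was Irx3, with log2 ratios of -1.04 and -1.43, and so was Lum, a collagen-binding proteoglycan, at -3.11 and -2.10. The Tbx5-bearing members thus had more Cxcl13, Smoc2 and Tnnt2 and less of the Irx genes in both libraries. Members with an Aldh1a2 UMI, 177 and 308, had less Gata4 and Gata5, zinc finger factors of cardiac mesoderm, with log2 ratios of -1.26 and -1.07 and of -1.61 and -1.95. Those with a Hoxb1 UMI, 122 and 67, had less Tagln, a smooth muscle gene, at -2.22 and -2.03.

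The members of each library were also clustered on their own. The clusters are left unnamed and described by their leading genes, and since they were built from these genes no test applies. At E9.5 there were 4 clusters. The 152 cells of cluster 1, or 38.9%, led with Tbx1, at 93.0 CPM against 7.17 CPM in the other members, Irx3, at 129 against 16.6 CPM, and Rdh10, at 91.9 against 16.1 CPM. The 116 cells of cluster 2 led with Cxcl13, at 349 against 116 CPM, the homeobox factor Nkx6-1, at 71.2 against 27.7 CPM, and Msc, at 87.1 against 38.3 CPM. Tbx5 and Wnt4 were among its leading genes too, and Aldh1a2 stood at 210 CPM. The 49 cells of cluster 4 shared these genes, with Wnt4 at 125 CPM, Tbx5 at 138 CPM and Aldh1a2 at 171 CPM, and had the mitotic gene Ube2c at 942 CPM against 141 CPM in cluster 2.

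Cluster 3 at E9.5 led with Barx1. Its 74 cells, or 18.9%, had Barx1 at 258 CPM against 0.905 CPM in the other members, together with Gata4 at 67.2 against 4.16 CPM, Gata5 at 57.7 against 5.43 CPM and Hoxc4 at 57.7 against 2.35 CPM. Isl1 was at 205 CPM there, Tbx5 at 22.6 CPM and Wnt4 at 2.92 CPM. The Barx1 level of the members at E9.5 was thus almost wholly from these cells. Xist was at 11.0 CPM in cluster 3 and between 122 and 227 CPM in the other clusters. The pooled embryos were of both sexes, and the embryo each cell came from was not recorded.

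At E10.5 there were 7 clusters. The 261 cells of cluster 1, or 26.9%, led with Irx2, at 141 against 5.13 CPM, Irx1, at 120 against 5.04 CPM, and Six2, a homeobox factor of progenitors, at 58.6 against 12.9 CPM, and had Isl1 at 128 CPM. Cluster 2, with 192 cells, led among others with Msc, at 151 against 45.2 CPM, and Smoc2, and cluster 4, with 164 cells, with Smoc2 and mitotic genes such as Ube2c, at 1012 CPM against 65.3 CPM in cluster 2. Wnt4 was at 83.5 and 75.6 CPM in clusters 2 and 4 and Cxcl13 at 357 and 311 CPM, so the Cxcl13, Msc and Wnt4 pattern of E9.5 was found again in 2 clusters that differed in mitotic genes. The 187 cells of cluster 3 led with histone genes and the S phase cyclin Ccne2, at 57.8 against 22.4 CPM. The largest cluster of each library had Irx genes among its leading genes, Irx3 at E9.5 against Irx2 and Irx1 at E10.5. Tbx1, the top leading gene of that E9.5 cluster, was instead among the leading genes of cluster 6 at E10.5.

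Smaller clusters at E10.5 had other leading genes. Cluster 5, with 95 cells or 9.80%, had Gata4 at 111 against 2.08 CPM, Smpx, a muscle protein, at 216 against 9.19 CPM, Gata6 at 116 against 15.9 CPM and Tbx5 at 187 CPM, and lacked Wnt4 for the most part, at 6.02 CPM. Barx1 was at 32.8 CPM there, the highest of the E10.5 clusters, and Cldn5 at 39.4 CPM and Etv2 at 25.4 CPM, against at most 4.97 CPM in the other clusters for each. Mpo, a granulocyte enzyme, was its leading gene at 63.5 CPM, but 92 of the 107 Mpo UMIs of all members at this stage were in a single cell. Cluster 6, with 62 cells, had the smooth muscle genes Tagln, at 478 against 10.1 CPM, and Acta2, at 375 against 11.1 CPM, with Tbx1 at 267 and Foxf2 at 223 CPM. Cluster 7 had 8 cells, of which 5 were among the highest doublet scores, with haemoglobin at 35.1% of their UMIs and a median of 31696 UMIs. The Gata4 cells resembled the E9.5 Barx1 cluster in Gata4, Gata5, Hoxc4 and low Xist, at 33.4 CPM.

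The clusters differed in stability. Under another resolution or seed the best-matching cluster kept a Jaccard overlap of at least 0.96 with E9.5 cluster 3, at least 0.989 with E10.5 cluster 5 and 1 with cluster 7, but 0.296 to 0.464 with E10.5 cluster 3 and 0.407 to 0.602 with cluster 4. The Irx2 cluster 1 and the Tagln cluster 6 of E10.5 were in between, at 0.418 to 0.814 and 0.419 to 0.903, and E9.5 cluster 4 ranged from 0.302 to 0.925. Over the members as a whole, none of 18 S phase and none of 18 G2/M genes was called between stages, with medians of -0.46 and -0.09. Most had log2 ratios below 0, 17 of the S phase and 14 of the G2/M genes. The S phase genes summed to 2769 CPM at E9.5 against 2021 CPM at E10.5, and the G2/M genes to 3349 and 3097 CPM.

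**Figure D5:**
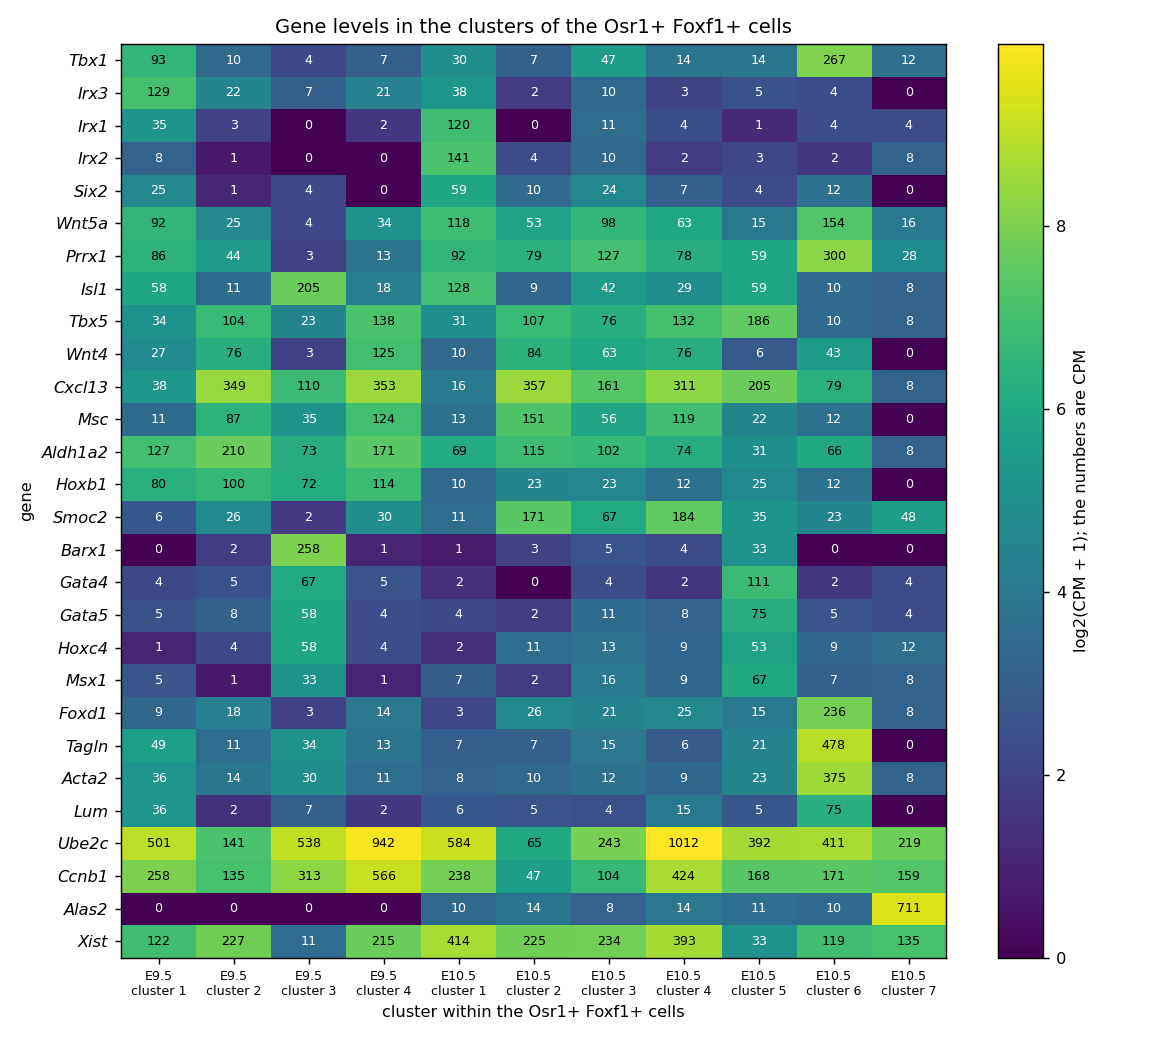
Level in CPM of 28 genes (rows) in the 4 clusters of Osr1+ Foxf1+ cells from E9.5 and the 7 from E10.5 (columns), with the colour scale as labelled. Barx1 is at 258 CPM in E9.5 cluster 3, Irx2 at 141 CPM in E10.5 cluster 1, Gata4 at 111 CPM in E10.5 cluster 5 and Tagln at 478 CPM in E10.5 cluster 6.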

How the data were processed

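Droplet 3' RNA-seq of 4 libraries, 1 per stage, was used. The authors counted UMIs with Cell Ranger 3.1.0, per the labels and methods, on the mouse build mm10, and deposited raw UMI counts per gene and cell. Cells with at least 1000 genes and at most 10% mitochondrial UMIs were retained, which removed 3 cells from the E9.5 library and 28 from the E10.5 library. Counts were summed over the cells of a library and scaled to 1000000 UMIs (CPM). Log2 ratios have exact conditional binomial intervals, and shares have exact Clopper-Pearson intervals. No p-value was computed. Named genes were those of the gene lists, the 15 with the largest ratio in each direction between stages with at least 100 UMIs, the 12 with the highest and lowest ratios against each set of cells at 50 CPM or more, and the 10 leading genes of a cluster. Leiden clusters were made per library with igraph 0.11.9 (2000 variable genes, 20 components, 15 neighbours, resolution 0.5). Doublet scores came from Scrublet in scanpy 1.11.5 and removed no cell. The calling steps were tested on simulated counts. The cells, lists and genes were chosen with earlier results of these data known. Promoter stretches were taken from RefSeq, GRCm38.p6. Some genes are not reported here.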

Additional observations from a re-analysis of the deposited data

Results flagged for a closer look

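Some genes moved in opposite directions between E9.5 and E10.5 in the Osr1+ Foxf1+ cells and in the other late cells, each by at least 2-fold. The difference between the sets was not tested, since each stage had 1 library. Smpx, a muscle protein, had a log2 ratio of 1.51 in the Osr1+ Foxf1+ cells, from 10.45 to 29.8 CPM, and -1.55 in the other cells, from 44.0 to 15.02 CPM. Gyg, a primer of glycogen synthesis, had 1.08, from 52.8 to 112 CPM, and -1.12 in the others. Msx2 had 2.78, on 9 and 134 UMIs, and -1.14 in the others, but with cells thinned its log2 ratio was 0.71 and it was not called. Smoc2 had 2.53, from 13.5 to 77.9 CPM, and -1.42 in the others.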

How the results depend on the processing

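No paired analysis was possible because each stage had 1 library. The order of the stage shares turned with cells thinned. The share of retained cells that met the rule was 8.61% (E9.5) and 8.07% (E10.5) with cells thinned, 6.81% and 7.32% with at least 2 UMIs of Osr1 and Foxf1 required, and 6.69% and 10.2% with no Wnt2 UMI allowed. At E10.5 it was 13.9% when cells over 1% haemoglobin were left out, an alternative chosen after seeing the data. With a minimum of 100 UMIs fewer genes were tested, and the counts called were 474 higher and 140 lower between stages, 34 and 180 against Wnt2 cells, 54 and 138 against Isl1 Nkx2-5 cells, and 98 and 194 against Upk3b cells. Leaving out cells over 1% haemoglobin took the count higher than in other late cells from 154 to 100. Of the stage ratios of single genes and list medians under alternatives, 34 moved beyond their interval or limit and 692 did not. No called gene changed sign. The small ratios of Wnt4 and Cxcl13, which were not called, turned to 0.14 and 0.33 with cells thinned, and the posterior list's median of -0.07 turned to 0.01 with totals that left out haemoglobin, mitochondrial and ribosomal protein genes. Depth limits rare transcripts, since a gene under 20 UMIs in the members was not called, and the absence of a second library per stage limits every stage difference.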

Other observations

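Mpo, a granulocyte enzyme, was at 0 UMIs in the Osr1+ Foxf1+ cells at E9.5 and was seen in 16 of them at E10.5, with 107 UMIs in all, of which 92 were in a single cell. Prtn3, a serine protease of granules, had 41 UMIs at the earlier stage and 215 at the later one, of which 84 were in a single cell.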
